A study of Mus musculus with 2 samples.

Results

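Open chromatin was compared at 8 genes that regulate blood stem and progenitor cells, Meis1, Mecom, Prdm16, Hlf, Gata3, Myb, Cd34 and Angpt1, in cultured mouse mast cells with and without DNMT3A. A region was assigned to one of these genes where that gene was the nearest protein-coding gene interval within 100 kb, and a region is a stretch covered by touching peaks of either list. This gave 34 of the 23364 regions of the merged lists, made of 26 of the 19684 peaks of the DNMT3A-KO library and 26 of the 17170 peaks of the WT library. The DNMT3A-KO library came from mast cells of DNMT3A-deleted mice (DNMT3A sets new DNA methylation), and the WT library from those of wild-type littermates, matched for age and for sex (females). Bone marrow of mice aged 3 to 4 weeks was grown for 4 weeks in interleukin 3 in both cases, with no further treatment, until over 95% of cells stained for Kit and the IgE receptor alpha chain. For neither culture do the labels describe the engineered allele or the number of animals pooled. Each genotype had 1 library. No difference below has therefore been set against a spread between cultures or animals, and the exact binomial 95% intervals cover counting error only. ATAC-seq marks accessible DNA by the insertion of adapters with the Tn5 transposase, and all positions are 1-based on mm10.

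The transcription factors among these genes act in blood stem cells and early progenitors. Meis1 is a homeodomain partner of HOX and PBX proteins, Mecom and Prdm16 are related PR-domain zinc finger proteins needed for stem cell maintenance, and Hlf is a PAR-type basic leucine zipper factor found in stem cells. Myb drives the growth of progenitors, and Gata3 is best known for its part in T cells. Cd34 is a surface sialomucin of stem and progenitor cells that mouse mast cells also carry, and Angpt1 is the secreted ligand of the receptor Tek.

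Of the marker genes of mast cells, 13 of 13 had a region in the DNMT3A-KO list and 11 of 13 in the WT list. For markers of T and NK cells the counts were 5 and 4 of 9 genes, for neutrophils 4 and 4 of 8, for macrophages 3 and 4 of 6, for megakaryocytes and erythroid cells 7 and 6 of 8, and for basophils 2 and 3 of 4. Over all 21627 protein-coding genes, 49.6% had a region in the DNMT3A-KO list and 46.4% in the WT list. The lists carry no read totals. Median summit pileup, the number of fragments stacked at a peak's summit, was 9 in both whole lists. A median over called peaks does not measure depth, and the pileups compared below were not scaled for depth. At Dnmt3a itself the DNMT3A-KO list held 5 peaks and the WT list 6, and the strongest WT peak there (chr12:3897094-3897359, −log10 q 21.8) had no DNMT3A-KO counterpart. This checks the labels only as far as the deletion reaches that stretch.

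Accessibility at the start sites of the 8 genes is shown first, because the start site of Cd34 was the one that differed between the lists. RefSeq promoter windows of 300 bases (250 before and 50 from the start site onward, GRCm38.p6, the assembly mm10 names) were at hand for 7 of the 8 genes, in 8 windows since Mecom has a pair of them. Bases under a peak of either list are in capitals.
Cd34 (chr1:194938571-194938870, plus strand): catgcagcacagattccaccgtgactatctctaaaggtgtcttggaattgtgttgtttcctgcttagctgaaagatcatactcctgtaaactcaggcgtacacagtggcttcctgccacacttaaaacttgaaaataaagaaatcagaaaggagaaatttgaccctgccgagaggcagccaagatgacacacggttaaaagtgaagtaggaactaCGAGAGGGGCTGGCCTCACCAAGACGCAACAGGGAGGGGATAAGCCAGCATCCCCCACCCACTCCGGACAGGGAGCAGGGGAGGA
Meis1 (chr11:19018920-19019219, minus strand): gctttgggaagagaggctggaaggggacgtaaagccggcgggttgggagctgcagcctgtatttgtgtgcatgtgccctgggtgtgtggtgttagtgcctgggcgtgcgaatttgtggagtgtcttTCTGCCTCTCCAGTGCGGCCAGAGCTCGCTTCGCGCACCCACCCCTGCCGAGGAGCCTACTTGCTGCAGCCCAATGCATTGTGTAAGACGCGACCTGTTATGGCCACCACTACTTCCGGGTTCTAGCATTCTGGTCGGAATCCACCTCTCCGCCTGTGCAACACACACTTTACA
Hlf (chr11:90390868-90391167, minus strand): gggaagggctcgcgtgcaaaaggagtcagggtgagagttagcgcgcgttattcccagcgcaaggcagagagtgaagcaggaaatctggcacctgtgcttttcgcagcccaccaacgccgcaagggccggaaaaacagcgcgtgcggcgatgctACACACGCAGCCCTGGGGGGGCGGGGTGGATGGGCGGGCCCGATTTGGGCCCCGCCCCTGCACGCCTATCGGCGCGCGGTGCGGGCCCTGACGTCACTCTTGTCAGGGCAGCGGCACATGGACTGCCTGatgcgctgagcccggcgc
Myb (chr10:21160935-21161234, minus strand): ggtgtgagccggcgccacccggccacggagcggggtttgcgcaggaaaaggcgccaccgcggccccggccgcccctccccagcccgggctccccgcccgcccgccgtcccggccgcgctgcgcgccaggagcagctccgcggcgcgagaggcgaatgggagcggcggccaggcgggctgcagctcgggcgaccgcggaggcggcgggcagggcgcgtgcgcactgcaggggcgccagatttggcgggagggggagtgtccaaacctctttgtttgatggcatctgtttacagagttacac
The Cd34 window was entered by a DNMT3A-KO peak over its last 85 bases and by no WT peak. The Meis1 and Hlf windows were each entered by a peak of both lists. Bases under a peak of either list numbered 174 in the Meis1 window and 129 in the Hlf window. Myb is shown as a window of high CG content that neither list covered.

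Counted over the windows, 1 of 8 had a peak in the DNMT3A-KO list alone (Cd34), 0 in the WT list alone, 2 in both (Meis1 and Hlf) and 5 in neither (both windows of Mecom, and those of Prdm16, Gata3 and Myb). Over the 21044 windows of protein-coding genes, 5.08% had a DNMT3A-KO peak alone, 3.23% a WT peak alone and 24.9% a peak in both lists. Windows with few and with many CG dinucleotides were found among both the covered and the uncovered ones. CG dinucleotides numbered 7 in the Cd34 window, 15 in that of Meis1 and 30 in that of Hlf. The uncovered windows held 40 (Myb), 24 (Prdm16), 22 (Gata3), and 9 and 19 (Mecom). The median was 23 over all windows covered in both lists and 6 over windows with no peak.

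Short motifs of blood cell factors were then looked for on both strands of these windows, and their positions are counted from the first printed base. The Meis1 window held the ETS motif CCGGAAG on its other strand at bases 239 to 245, under the peaks, together with the RUNX motif TGTGGT at 85 to 90 and the E-box CATGTG at 70 to 75, both outside them. The Hlf window held CATGTG on its other strand at 268 to 273, under the peaks. In the Cd34 window the only hit was the ETS motif CAGGAAG on the other strand at 109 to 115, outside the peak. The search also took AGATAA for GATA factors with TGATAA as its other form, and CAGCTG and CACGTG as further E-boxes. TGACAG was taken for MEIS factors and CAACTG for MYB, and no motif was found in the Myb window. The remaining hits in windows without a peak were TGACAG in the inner window of Mecom, TGATAA with CATGTG in its outer window, CATGTG in that of Prdm16 and CAGCTG in that of Gata3. Of all 21044 windows, 22.8% held an ETS motif, 14.75% the RUNX motif, 18.9% CATGTG or its palindromic relative, 15.8% a GATA motif, 15.7% the E-box CAGCTG, 18.3% the MEIS motif and 12.5% the MYB motif. None of the hits named overlapped another. These matches describe letters and not binding.

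Over the 8 genes, the lists had similar numbers of regions of their own. Of the 34 regions, 9 were found in the DNMT3A-KO list alone, 8 in the WT list alone and 17 in both. DNMT3A-KO-only regions were 26.5% of them (interval 12.9 to 44.4), against 28.0% of all regions. WT-only regions were 23.5% (10.7 to 41.2), against 16.9%, and shared regions 50% (32.4 to 67.6), against 55.1%. All 3 shares of the whole lists lay inside the intervals of these genes. Of the peaks, 17 of 26 in the DNMT3A-KO list (65.4%, interval 44.3 to 82.8) and 18 of 26 in the WT list (69.2%, 48.2 to 85.7) were overlapped by a peak of the other list, against 66.8% and 77.0% of all peaks. With the 2 lists held at equal length the balance of unshared regions turned to 2 fewer DNMT3A-KO-only than WT-only regions.

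**Figure D1:**
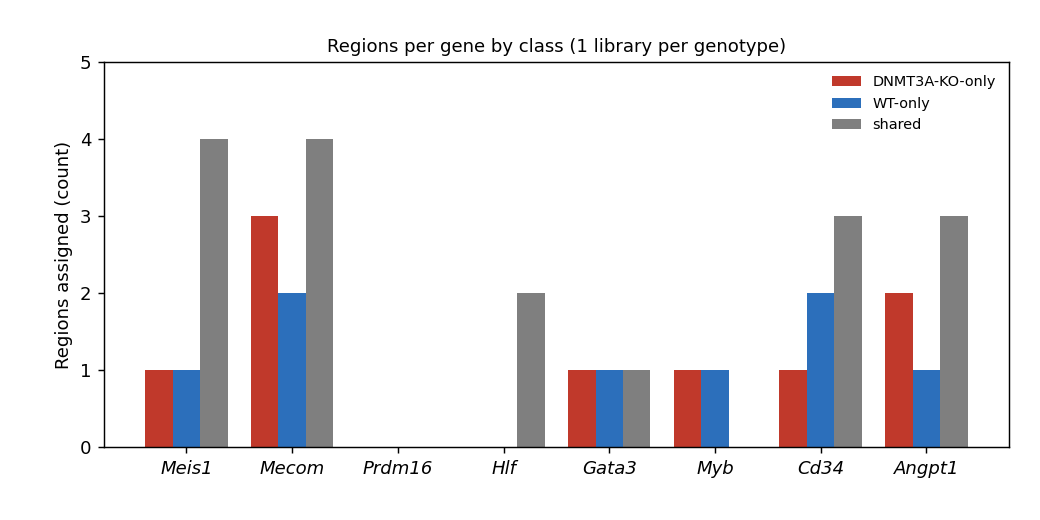
Bars give the number of regions assigned to each gene (vertical axis, count) that were found in the DNMT3A-KO list alone, in the WT list alone or in both, with 1 library per genotype. Mecom had the most regions (3, 2 and 4), Hlf had shared regions only, Myb had 1 of each unshared kind, and Prdm16 had none.

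At 7 of the 8 genes there was at least 1 region, against 53.7% of all protein-coding genes. Meis1, Mecom, Cd34 and Angpt1 were among the 2.24% of protein-coding genes with 6 or more regions. Their intervals were 139, 558, 22.5 and 252 kb long, in that order. The part of gene length, and of the distance to the next gene, in these counts was not tested. The same numbers of DNMT3A-KO-only, WT-only and shared regions as at Meis1 were found at 18 other genes, as at Cd34 at 19, as at Angpt1 at 21, as at Gata3 at 192, as at Myb at 285 and as at Hlf at 825, and those of Mecom at 1. The region farthest inside the 100 kb limit lay 87.5 kb from Angpt1, and the nearest one beyond it was a shared region 136 kb from Meis1. Beyond the limit, 11 further regions had one of these genes as their nearest, 5 of them DNMT3A-KO-only and 6 shared. The DNMT3A-KO-only ones were nearest to Gata3 (175, 263, 479 and 715 kb away) and to Angpt1 (217 kb). Over all regions, 28.0% were DNMT3A-KO-only, 16.9% WT-only and 55.1% shared. These shares were not computed for regions beyond the limit alone, so the 11 regions cannot be read as a difference between the lists.

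**Figure D2:**
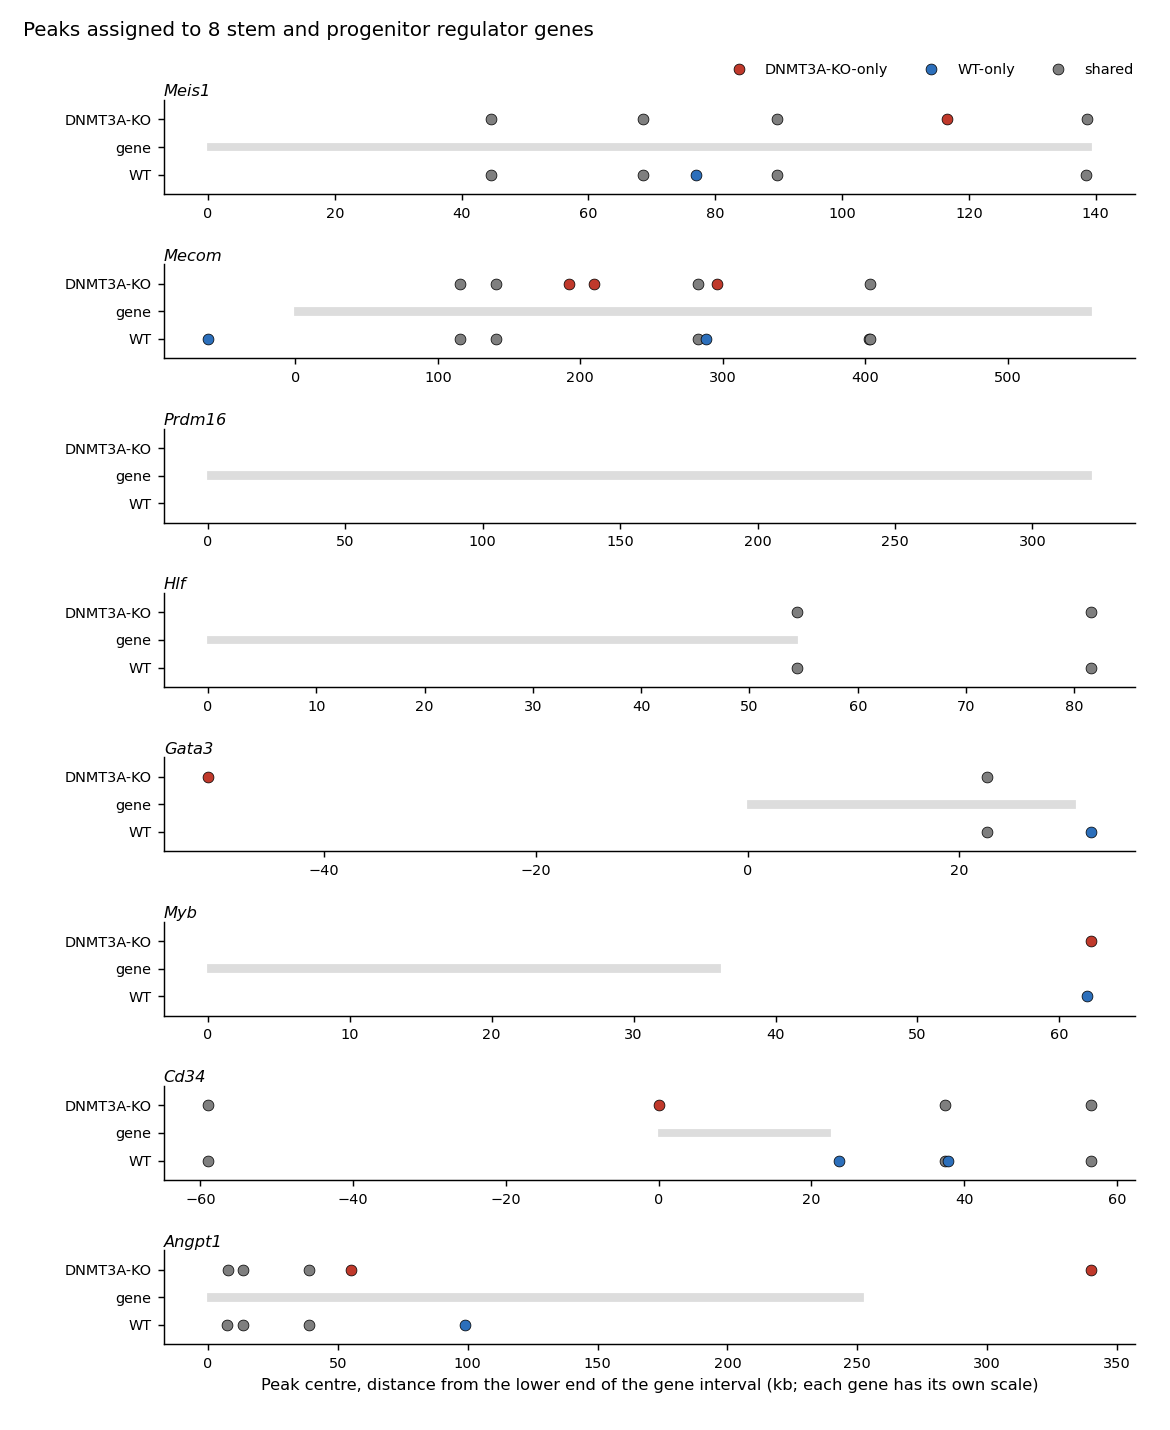
Each panel shows 1 gene, with peak centres of the DNMT3A-KO list above and of the WT list below the grey gene interval, placed by their distance from the interval's lower end in kb. All 6 regions of Meis1 lay inside the gene, both regions of Myb and 5 of the 6 of Cd34 lay outside it, and the 321 kb of Prdm16 were empty in both lists.

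Meis1 (chr11:18880428-19019651, 139 kb, transcribed toward lower coordinates) had 4 shared regions, 1 DNMT3A-KO-only region and 1 WT-only region, all inside the gene. The strongest lay 48.8 kb downstream of the start site (chr11:18970031-18970353). Its −log10 q was 25.6 in the DNMT3A-KO list, with a summit pileup of 22 and a width of 276 bp, and 20.6 in the WT list, with a pileup of 19 and 294 bp. By −log10 q these peaks stood at percentile 95.4 of the DNMT3A-KO list and 92.6 of the WT list. The start site was accessible in both libraries, with a pileup of 16 in the DNMT3A-KO and 16 in the WT list, and peak widths of 200 and 208 bp. The other shared regions lay 70.0 kb (chr11:18948899-18949115) and 93.8 kb (chr11:18925036-18925217) downstream of it, with pileups of 10 and 10 at the nearer and 12 and 9 at the farther. The unshared regions were weaker: the DNMT3A-KO-only one (chr11:18996881-18997002) had a pileup of 8 and a −log10 q of 8.69, and the WT-only one (chr11:18957286-18957396) a pileup of 6 and 5.17. A run of shared regions far beyond the 100 kb limit, 136, 160, 175, 234 and 353 kb away on the upstream side, also had Meis1 as its nearest protein-coding gene.

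Mecom (chr3:29951296-30509759, 558 kb) is long because its interval joins the Mds1 start to the shorter Evi1 form, whose start site lies inside it. It had 9 regions, 3 of them DNMT3A-KO-only, 2 WT-only and 4 shared, and neither of its promoter windows held a peak. The strongest region lay in the middle of the gene (chr3:30234087-30234355), 221 kb upstream of the inner start site. It had a −log10 q of 28.3 and a pileup of 24 in the DNMT3A-KO list, and 20.6 and 18 in the WT list, with widths of 269 and 210 bp. This was the highest −log10 q of any DNMT3A-KO peak assigned to the 8 genes. Shared regions closer to the inner start lay 53.5 kb (chr3:30066599-30066771) and 78.9 kb (chr3:30092038-30092231) upstream of it. Their pileups were 11 in the DNMT3A-KO and 9 in the WT list at the nearer one, and 9 and 12 at the farther one. At the last shared region (chr3:30354318-30354589) a single DNMT3A-KO peak of 252 bp faced a pair of WT peaks of 100 and 126 bp that were 13 bp apart. Both libraries thus had the site, divided differently by the calls.

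The unshared regions of Mecom differed in strength. Of its DNMT3A-KO-only regions, those at chr3:30143648-30143747 and chr3:30161111-30161210 were 100 bp wide with a pileup of 4, at percentiles 4.23 and 2.44 of the DNMT3A-KO list. The third, at chr3:30247002-30247107, had a pileup of 7 and a −log10 q of 7.68. The WT-only region at chr3:29889770-29889895 had the highest −log10 q of the WT-only regions of these genes, 11.8 with a pileup of 10, rank 86 among 3952 WT-only regions. It lay 61.4 kb below the gene, over the lncRNA gene Gm33206, and the nearest DNMT3A-KO peak was 177 kb away. The other WT-only region (chr3:30239515-30239614) had a pileup of 5. At −log10 q of at least 5 the balance at Mecom turned to 1 DNMT3A-KO-only and 2 WT-only regions.

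Prdm16 (chr4:154316122-154637360, 321 kb) had no region in either list, inside the gene or within 100 kb of it. The nearest peaks were 155 kb away in the DNMT3A-KO list and 155 kb away in the WT list, at Tprgl. Among the 501 protein-coding genes at least as long, 39.3% also had none assigned. At this depth the absence of a peak shows that no accessibility was called, not that the locus was closed.

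Hlf (chr11:90336535-90390917, 54.4 kb, transcribed toward lower coordinates) had 2 regions, both shared. One sat on the start site, with a pileup of 8 and a −log10 q of 8.89 in the DNMT3A-KO list, and 6 and 5.30 in the WT list. The other lay 27.1 kb upstream (chr11:90417958-90418131), with a pileup of 12 and 13.7 in the DNMT3A-KO list, and 9 and 9.98 in the WT list. The upstream region was the stronger one in both lists. Its widths were 174 bp in the DNMT3A-KO and 129 bp in the WT list, and those at the start site 120 and 110 bp. Of the 7 genes with regions, Hlf alone had no region that was particular to 1 list.

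Gata3 (chr2:9857078-9887953, 30.9 kb) had 1 region of each class. The shared region (chr2:9879586-9879853) lay inside the gene interval, 1.12 kb upstream of the RefSeq start site used here, outside the promoter window. Its pileup was 23 in the DNMT3A-KO list and 14 in the WT list, its −log10 q 23.3 and 11.8, and its width 268 and 150 bp. That is a difference of 118 bp, the widest among the shared regions of these genes. By −log10 q the peaks stood at percentile 93.2 of the DNMT3A-KO list and 70.1 of the WT list. The DNMT3A-KO-only region (chr2:9806046-9806145) was 50.9 kb below the gene and near the bottom of its list, with a pileup of 4 and 99.5% of DNMT3A-KO-only regions as strong or stronger. The WT-only region (chr2:9889427-9889526), 1.47 kb above the gene and over the lncRNA gene 9230102O04Rik, had a pileup of 7.

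Myb (chr10:21124930-21160984, 36.1 kb, transcribed toward lower coordinates) had no region in or at the gene. Its regions lay 26.2 kb (DNMT3A-KO) and 25.9 kb (WT) upstream of the start site, side by side over or next to the lncRNA gene Gm33619. The DNMT3A-KO-only region (chr10:21187087-21187207) had a pileup of 8, a −log10 q of 8.51 and a width of 121 bp. The WT-only region (chr10:21186818-21186917) had a pileup of 6, a −log10 q of 5.57 and a width of 100 bp. They were 169 bp apart, with summits 272 bp apart. Each library thus had accessible DNA beside that of the other, and joined across gaps of under 300 bp (a limit chosen after the data were seen) they made 1 shared region. Among all unshared regions, 11.2% had a peak of the other list under 300 bp away, and among those of these genes 3 of 17 did.

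Cd34 (chr1:194938821-194961292, 22.5 kb, transcribed toward higher coordinates) had 1 DNMT3A-KO-only, 2 WT-only and 3 shared regions. The DNMT3A-KO-only region (chr1:194938786-194938949, 164 bp) covered the start site. Its pileup was 12 over a local background of 0.53, its fold enrichment 8.50 in the authors' list and its −log10 q 10.1, which 10.4% of DNMT3A-KO-only regions matched or passed. The WT list had its nearest peak 23.4 kb away. At a like local background (within 0.05) the weakest WT peak called had a pileup of 7, so that a WT pileup below 7 could have gone without a call, if the WT background there was alike.

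The other regions of Cd34 lay on both sides of the gene. The strongest was shared (chr1:194995251-194995536), 34.0 kb above the gene over the lncRNA gene Gm32250, with pileups of 23 in the DNMT3A-KO and 22 in the WT list, −log10 q of 26.4 and 24.4, and widths of 283 and 265 bp. The next protein-coding gene, Cd46, was 43.4 kb from this region. The WT peak of this Cd34 region had the highest −log10 q of any WT peak assigned to the 8 genes. A shared region 14.9 kb above the gene (chr1:194976239-194976450) had pileups of 10 in the DNMT3A-KO and 13 in the WT list, and a WT-only region of pileup 7 lay 177 bp from its DNMT3A-KO peak (chr1:194976616-194976715). The second WT-only region (chr1:194962363-194962462), 1.07 kb above the gene, had a pileup of 4, and all 3 lay over the lncRNA gene Gm16897. The third shared region (chr1:194879754-194879937), 58.9 kb below the gene, was nearly as close to Plxna2, at 62.9 kb, with pileups of 6 and 5. At −log10 q of at least 5 both WT-only regions dropped out, leaving 1 DNMT3A-KO-only region against 0.

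Angpt1 (chr15:42424667-42676977, 252 kb) had 2 DNMT3A-KO-only, 1 WT-only and 3 shared regions. The shared regions were bunched near its lower end, 7.47, 13.4 and 38.8 kb from it. Their pileups were 12 in the DNMT3A-KO and 5 in the WT list at chr15:42432141-42432331, 15 and 13 at chr15:42438066-42438402, and 9 and 11 at chr15:42463459-42463673. Neither list was thus the higher at all 3. Widths were 186 and 105 bp, 254 and 264 bp, and 215 and 160 bp. The stronger DNMT3A-KO-only region (chr15:42764440-42764594) lay 87.5 kb above the gene, over the lncRNA gene Gm41314, with a pileup of 8 and a −log10 q of 10.3, the highest of the DNMT3A-KO-only regions of these genes. The other (chr15:42479591-42479690) had a pileup of 5, and the WT-only region (chr15:42523595-42523699) a pileup of 7, both inside the gene.

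**Figure D3:**
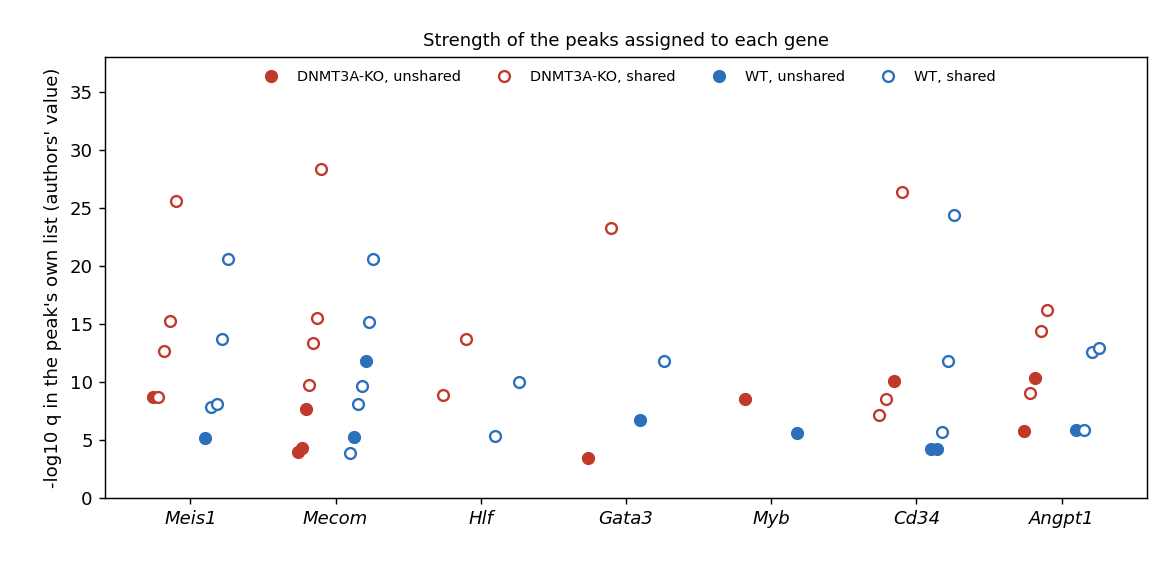
Points give the authors' −log10 q (vertical axis) of each peak assigned to 7 of the genes, DNMT3A-KO left of WT at each gene, with filled points for peaks found in 1 list and open points for shared ones. Unshared peaks reached 10.3 in the DNMT3A-KO list and 11.8 in the WT list, while shared ones reached 28.3 and 24.4; values rank peaks within their own list.

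Peaks that the lists shared were stronger than those they did not. Shared peaks of these genes had a median pileup of 12 in the DNMT3A-KO and 10.5 in the WT list, and unshared ones 7 and 6.5. In all peaks the medians were 11 and 10 for shared and 6 and 6 for unshared peaks. Of the 9 unshared DNMT3A-KO peaks 2 were above their list's median −log10 q, those at the Cd34 start site and above Angpt1, and of the 8 unshared WT peaks 1 was, that below Mecom. Unshared peaks were weak over the whole lists too. Their median −log10 q was 6.48 in the DNMT3A-KO list, against 8.89 for all its peaks, and 6.08 in the WT list, against 8.49. The shortest width in either list, 100 bp, was that of 4 of the 9 unshared DNMT3A-KO peaks and 5 of the 8 unshared WT peaks, against 32.2% and 38.3% of all unshared peaks of those lists. Of the shared peaks of these genes it was that of 0 of 17 in the DNMT3A-KO list and 2 of 18 in the WT list, against 6.95% and 9.23% of all shared peaks.

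Shared sites were more often wider in the DNMT3A-KO list, at these genes and over the whole lists alike. Among the 16 shared regions with 1 peak in each list the DNMT3A-KO peak was the wider at 12 (75%) and the WT peak at 4. Over all 12299 such regions the DNMT3A-KO peak was the wider at 56.7%. Whether 75% of so few regions departs from that share was not tested. The DNMT3A-KO width minus the WT width had a median of 27.5 bp and ran from -18 to 118 bp, against a median of 9 bp over all such regions. Median widths of all peaks assigned to these genes were 175.5 bp in the DNMT3A-KO and 126 bp in the WT list, against 154 and 150 bp in the whole lists. Of the 12 sites with the wider DNMT3A-KO peak, the pileup was higher in the DNMT3A-KO list at 9, equal at 1 and higher in the WT list at 2. Of the 4 with the wider WT peak, it was higher in the DNMT3A-KO list at 2, equal at 1 and higher in the WT list at 1. Widths and pileups were not set against each other in this way over all 12299 regions. The largest differences in width, at Gata3, the lowest region of Angpt1 and that below Cd34, stood at sites with pileups of 23, 12 and 6 in the DNMT3A-KO list and 14, 5 and 5 in the WT list. At the third shared region of Angpt1 the DNMT3A-KO peak was 55 bp wider with pileups of 9 and 11. The part of sequencing depth or peak strength in these widths was not tested.

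**Figure D4:**
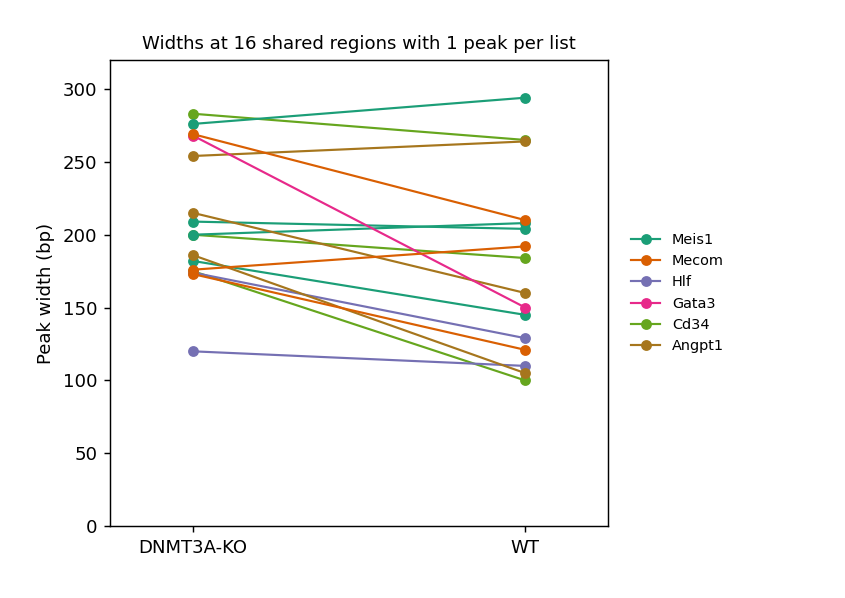
Lines join the peak widths (vertical axis, bp) in the DNMT3A-KO and the WT list at the 16 shared regions with 1 peak per list, coloured by gene. The DNMT3A-KO peak was the wider at 12, by up to 118 bp at Gata3, and lines that run the other way are found at Meis1, Mecom and Angpt1.

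Shared sites had their summits close together in both lists. Summits were 3 to 65 bp apart, with a median of 20.5 bp, and 12 of 16 pairs were within 50 bp, against 74.8% of all 12299 pairs, whose median was 28 bp. The farthest pairs were at the Meis1 start site (65 bp), at the region below Cd34 (62 bp) and at the lowest region of Angpt1 (62 bp). By place, 22 of the 34 regions overlapped their gene (64.7%, interval 46.5 to 80.3), against 71.2% of all assigned regions. This was so for 6 of 9 DNMT3A-KO-only regions (66.7%, interval 29.9 to 92.5), against 67.0% of all assigned DNMT3A-KO-only regions. It was so for 3 of 8 WT-only regions (37.5%, 8.52 to 75.5), against 66.4%, and for 13 of 17 shared regions (76.5%, 50.1 to 93.2), against 74.7%. Each of these intervals held the share over all assigned regions of its class. Of the 12 regions outside the genes, 8 overlapped an lncRNA gene. The like share over all assigned regions outside their gene was not computed, so this count cannot be called particular to these genes.

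A further 35 genes of stem and progenitor cells were counted in the same way. They had 23 DNMT3A-KO-only, 17 WT-only and 46 shared regions, against 6413, 3865 and 13116 over all protein-coding genes. Shared regions were 53.5% of those at the 35 genes and 56.1% over all protein-coding genes. With the lists held at equal length the balance at the 35 genes turned to 2 fewer DNMT3A-KO-only than WT-only regions. Of the 35 genes, 18 had a region in the DNMT3A-KO list and 18 in the WT list (51.4% in each). Over all protein-coding genes these shares were 49.6% and 46.4%. More DNMT3A-KO-only than WT-only regions were found at 10 of the 35 genes and the opposite at 8, against 3732 and 2034 of all protein-coding genes. The largest differences were at Erg (5 DNMT3A-KO-only, 0 WT-only) and Etv6 (3 and 1), both ETS factor genes, at Fli1 (2 and 4), another, at Itga2b (2 and 0), an integrin gene of megakaryocytes, and at Meis2 (0 and 2), a relative of Meis1. The 5 genes named here do not share a direction.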

How the data were processed

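Per the labels' protocols, nuclei were isolated with 0.1% Igepal, tagmented with home-made Tn5, and the libraries sequenced on single 50 bp reads, at a depth given as 10 M. The submitters' processing notes name Trimmomatic, Bowtie2, MACS2 and the builds mm10 and GRCm38. Software versions and settings, and whether reads were moved to the transposase cut, were not given in the sources used here. The authors deposited 1 peak list per library, with a score, a fold enrichment (ratio), a −log10 p-value and a −log10 q-value per peak. The score deposited by the authors was 10 times the −log10 q in 100% of peaks. These are the authors' values and were used only to describe, rank or filter peaks of a list, and to solve summit pileup and local background. A −log10 q limit common to both lists need not be equally strict in each.

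Summit pileup and local background were solved from fold and −log10 p (Poisson tail, pseudocount of 1 in the fold), giving whole numbers for 100% of peaks within 0.001. Peaks sharing at least 1 bp were merged with Python 3.11.15, NumPy 2.4.6 and pandas 2.3.3, with exact (Clopper-Pearson) 95% intervals from SciPy 1.17.1. Genes came from a RefSeq table of GRCm38.p6 without exons, so that exons, introns and UTRs are not resolved. Start sites and strand came from RefSeq promoter windows. All 8 genes matched. With 1 library per genotype no test was made. Each of the 8 genes is reported with every region; from the other lists, fixed by name, only the genes with the largest difference are named. Genes and lists were chosen with earlier results of these data known. The steps were tested on simulated data. The simulated peaks were made with the same formula that was solved, and included neither the lowest pileups seen here nor split peaks. No genome sequence was used outside the promoter windows.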

Additional observations from a re-analysis of the deposited data

How the results depend on the processing

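No paired analysis was possible because there was only 1 library of either genotype. Under 10 alternatives (1 of them, joining regions under 300 bp apart, chosen after the data were seen) the numbers over the 8 genes ran from 6 to 9 DNMT3A-KO-only, 3 to 9 WT-only and 13 to 18 shared regions. WT-only regions fell to 5 over gene bodies with 10 kb and to 3 by the nearest gene of any type. The difference of DNMT3A-KO-only and WT-only regions, 1 as reported, was 0 with a −log10 q limit of 5 on both lists, with that limit on unshared regions only, with a reciprocal overlap of 50% and with the nearest gene within 50 kb, 4 by the nearest gene of any type, and turned to -2 with equal numbers of peaks. At Mecom it turned from 1 to -1 with both −log10 q settings and with equal numbers, and at Cd34 from -1 to 1 with both −log10 q settings and by the nearest gene of any type. With equal numbers of peaks it turned from 6 to -2 in the other stem and progenitor genes and from 1 to -6 in mast cell genes. Kit and Gata2 stand in both of these gene lists. Regions overlapping their gene became 91.7% over gene bodies with 10 kb and 91.7% by the nearest gene of any type. By construction the first setting removes distant regions, and the second removes regions that lie nearer to a non-coding gene, whatever their distance. The median summit distance was 23 bp with the −log10 q limit on both lists, 23 bp with the reciprocal overlap, 26 bp over gene bodies with 10 kb, 18 bp within 50 kb, 23 bp by any gene type and 26 bp with regions under 300 bp joined. Shares of overlapped peaks (not computed with regions under 300 bp joined), median widths and the share of wider DNMT3A-KO peaks (66.7% to 76.5%) stayed within their intervals or 10% of their value under the alternatives run. The cause of the other shifts was not tested. Pileups of 4 to 12 behind the unshared peaks limit every statement on presence.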
